A study of Capra hircus with 10 samples.

Results

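Widely used marker genes of immune cells were looked up in RNA sequencing data of whole goat ovaries, to describe how macrophage and lymphocyte transcripts differed between the follicular and the luteal phase. The genes were PTPRC for all leukocytes, CD3E, CD4 and CD8A for lymphocytes, and CD68, CD163, CSF1R, CD14, AIF1 and TYROBP for macrophages. They were taken from the protein-coding transcripts by gene symbol, and the values of transcripts with the same symbol were summed. Of the 10 genes, 9 were in the table of 20587 protein-coding gene symbols, and CD163 was not analysed here. All 9 passed the filter on low values, and they comprised 1 pan-leukocyte, 3 lymphocyte and 5 macrophage genes. Each had 1 transcript model, except AIF1, which had 2.

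The ovaries came from Anhui white goats and were collected at a slaughterhouse, 5 in the follicular phase, in which follicles grow towards ovulation, and 5 in the luteal phase, in which the corpus luteum makes progesterone. Each library was made from the RNA of 1 whole ovary, with no sorting of cells and no treatment, and the age of the goats is not given in the sources used here. Expression was given as FPKM, fragments of a transcript divided by its length and by the mapped fragments of the library. No read counts were used here, so the depth of each ovary is unknown. Values of single ovaries are given in the order of the replicate numbers, and the spread between ovaries is the only measure of error.

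Macrophages and T cells are resident in the ovary and gather in the corpus luteum, where macrophages take up dying luteal and endothelial cells and secrete factors that act on steroid-making cells and vessels. T cells carry the CD3 complex, and many but not all of them also carry CD4, the co-receptor of helper cells, or CD8, the co-receptor of cytotoxic cells. CD8 can be built from the products of CD8A and CD8B, or of CD8A alone. Macrophages depend on signals through the receptor CSF1R, whose ligands are CSF1 and IL34.

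The tissue labels were checked with cell type lists, to be read against all genes tested, of which 15.9% were called as higher in the luteal and 27.8% as higher in the follicular phase. All 6 corpus luteum genes tested were higher in the luteal phase, and STAR, which moves cholesterol into mitochondria, had a mean FPKM of 2650.6 in luteal and 16.6 in follicular ovaries. Of 8 granulosa cell genes, 4 were higher in the follicular phase and 4 did not pass the test, and of 10 endothelial genes, 9 were higher in the luteal phase. Of 10 stromal genes, 3 were higher in the luteal phase, 4 were higher in the follicular phase and 3 did not pass the test. Follicular replicate 5 stood apart in immune genes. It had the highest FPKM of the 5 follicular ovaries for 7 of the 9 markers, all except CD14 and AIF1, and for 71 of 102 genes of the other immune lists, against 28.3% of all genes tested. Its summed FPKM was 206 for 18 pan-leukocyte genes, where the other follicular ovaries reached at most 130, and 35.2 for 9 cytotoxic lymphocyte genes, where they reached at most 16.8. For corpus luteum, endothelial, granulosa cell, stromal and red blood cell genes it lay within the range of the other 4 follicular ovaries. For 6 neutrophil genes it was the lowest follicular ovary, with a summed FPKM of 18.4 (the others 21.2 to 56.5). It was also the lowest for 12 B cell and plasma cell genes, at 21.2 (the others 29.8 to 35.8). These 2 sums include genes below the filter. Results that rest on follicular replicate 5 are also given without it. This ovary was singled out after the data were seen, because immune genes were high in it. Leaving it out therefore raises the luteal minus follicular difference of those genes by construction. Such rises are a description of how much this ovary weighs, and no independent support.

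CSF1R and CD8A were higher in the luteal phase, 1.93-fold and 2.29-fold on the log2(FPKM + 0.1) scale, and TYROBP was higher by 1.41-fold with a call that was lost in 8 of 10 fits leaving out 1 ovary. PTPRC, CD3E, CD4, CD68, CD14 and AIF1 did not pass the test. Thus 3 of the 9 markers were called by limma at a Benjamini-Hochberg adjusted p under 0.05, all 3 higher in the luteal phase, while among all 15359 genes tested 43.7% were called, 15.9% as higher in the luteal and 27.8% as higher in the follicular phase. The luteal share of all calls was 36.3%, and 48.8% with a common median or 52.5% with TPM. Without follicular replicate 5 the number of markers called was 4 of 9, against 40.0% of all genes and 15.7% as higher in the luteal phase. The median log2 fold change (luteal minus follicular) of the 9 markers was 0.18, and 0.43 without that ovary, beside -0.14 and -0.12 over all genes tested. The FPKM of the phases overlapped for every marker, whereas 28.4% of all genes tested had phases that did not overlap. In RNA of whole ovaries, fewer cells of a type and less RNA per cell cannot be told apart.

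**Figure D1:**
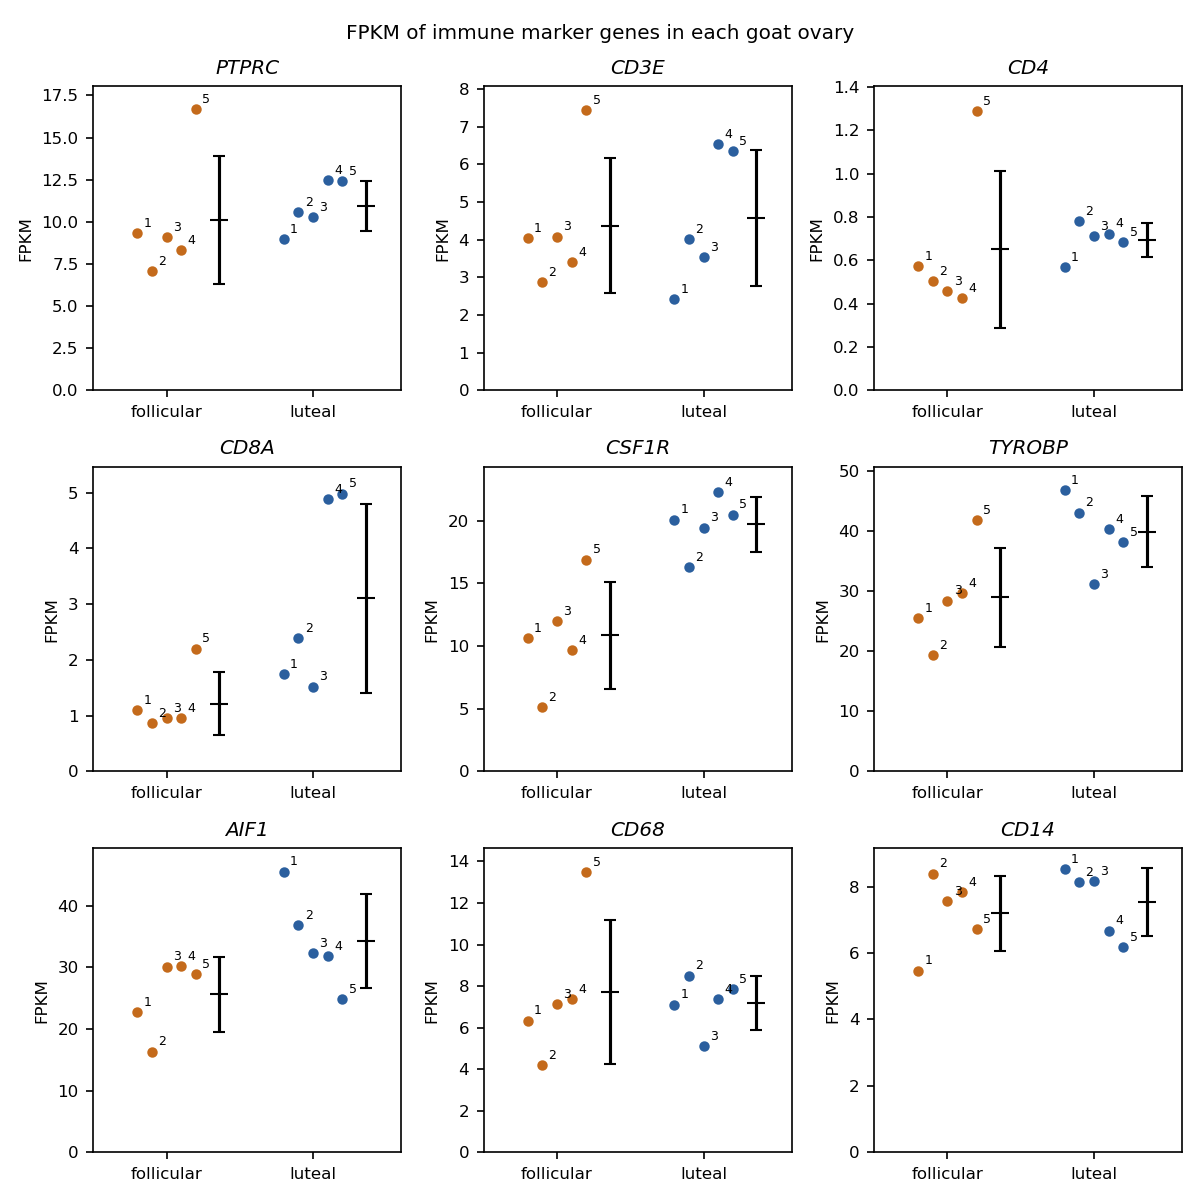
FPKM (vertical axis, from 0) of the 9 immune marker genes in each of 5 follicular (orange) and 5 luteal (blue) ovaries, numbered by replicate, with the mean ± SD in black. CSF1R and CD8A were higher in the luteal phase, and follicular replicate 5 was the highest follicular ovary for every gene shown except AIF1 and CD14.

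Among the macrophage genes of the marker set, CSF1R, the receptor for CSF1 and IL34, changed most. Its FPKM was 10.6, 5.10, 11.98, 9.66 and 16.9 in follicular replicates 1 to 5 and 20.1, 16.3, 19.4, 22.3 and 20.5 in luteal replicates 1 to 5. Follicular replicates 1 to 4 lay below every luteal ovary, and only follicular replicate 5 reached into the luteal range. The mean was 19.7 ± 2.19 (SD, n = 5) in the luteal and 10.9 ± 4.25 (SD, n = 5) in the follicular phase, a log2 fold change of 0.95 (SE 0.25, limma adjusted p = 0.00998; exact permutation test, two-sided, p = 0.0159). CSF1R was called in 10 of 10 fits that left out 1 ovary each, and its log2 fold change without follicular replicate 5 was 1.13 (limma adjusted p = 0.00264). When single transcripts were tested, among which 17.3% of all transcripts were called, CSF1R was the only marker that passed. CSF1R has 1 transcript model with the same values as the gene, so its transcript call is no separate evidence. The tests differ in the number of features adjusted for and in the variance that limma estimates. The transcript call (limma adjusted p = 0.0317) was lost in 6 of 10 fits that left out 1 ovary. These were the fits without follicular replicate 1 or 4 or luteal replicate 1, 3, 4 or 5.

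TYROBP, an adaptor protein through which TREM2 and other activating receptors of myeloid and natural killer cells signal, was the most abundant of the markers. Its FPKM was 25.5, 19.3, 28.4, 29.7 and 41.9 in the follicular and 46.9, 43.1, 31.2, 40.4 and 38.2 in the luteal ovaries. All luteal ovaries were above 4 of the 5 follicular ovaries, and follicular replicate 5 was above 3 luteal ovaries. The log2 fold change was 0.49 (SE 0.18, limma adjusted p = 0.0420). This call was held in 2 of 10 fits that left out 1 ovary, with an adjusted p between 0.00658 (without follicular replicate 5) and 0.0891. It was lost with quantile normalization (limma adjusted p = 0.0794) and with a replicate block (limma adjusted p = 0.0605).

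AIF1 codes for IBA1, an actin-binding protein used as a macrophage marker. Its FPKM was 22.7, 16.3, 30.1, 30.2 and 28.9 in the follicular and 45.5, 36.8, 32.3, 31.8 and 24.8 in the luteal ovaries. Luteal replicates 1 to 4 were above all follicular ovaries, and luteal replicate 5 lay among the follicular values. The log2 fold change of 0.43 (95% interval 0.0048 to 0.85) did not pass the adjusted threshold (limma adjusted p = 0.0925), and passed it only without luteal replicate 5 (adjusted p = 0.0464). One of the 2 transcript models carried between 88.5% and 94.0% of the AIF1 signal in each ovary, so the choice of isoform had little weight in the sum.

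CD68, a glycoprotein of lysosomes that is abundant in phagocytes, and CD14, the receptor that hands bacterial lipopolysaccharide to TLR4, did not pass the test. CD68 was 6.35, 4.20, 7.14, 7.36 and 13.5 FPKM in follicular and 7.11, 8.51, 5.11, 7.36 and 7.84 FPKM in luteal ovaries. CD14 was 5.47, 8.39, 7.57, 7.83 and 6.72 FPKM in follicular and 8.52, 8.14, 8.15, 6.67 and 6.19 FPKM in luteal ovaries. The log2 fold change was -0.02 for CD68 (95% interval -0.57 to 0.54, limma adjusted p = 0.962) and 0.07 for CD14 (95% interval -0.22 to 0.36, limma adjusted p = 0.694). The sign for CD68 became positive under other scalings (0.07 with a common median) and without follicular replicate 5 (0.21). The interval for CD14 left no room for a change as large as the estimate for CSF1R, and that for CD68 did not reach it either.

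PTPRC codes for CD45, the phosphatase on the surface of all nucleated blood cells. Its FPKM was 9.32, 7.09, 9.10, 8.30 and 16.7 in follicular and 8.97, 10.6, 10.3, 12.5 and 12.4 in luteal ovaries. Luteal replicates 2 to 5 were above 4 of the follicular ovaries, but the highest value of all 10 was that of follicular replicate 5. With all ovaries the log2 fold change was 0.17 (95% interval -0.26 to 0.60, limma adjusted p = 0.512). Without follicular replicate 5 it was 0.36 and passed the test (limma adjusted p = 0.0372), so this 1 ovary decided the call. Leaving out the highest follicular value could only raise the difference.

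Of the lymphocyte genes, CD8A changed and CD3E and CD4 did not pass the test. The FPKM of CD8A was 1.11, 0.863, 0.957, 0.953 and 2.20 in follicular and 1.74, 2.39, 1.52, 4.88 and 4.98 in luteal ovaries. Luteal replicates 4 and 5 were far above the rest, and follicular replicate 5 was above luteal replicates 1 and 3. The mean was 3.10 ± 1.70 (SD, n = 5) in the luteal and 1.22 ± 0.559 (SD, n = 5) in the follicular phase, a log2 fold change of 1.20 (SE 0.36, limma adjusted p = 0.0204; exact permutation test, two-sided, p = 0.0238). The call was lost without luteal replicate 4 (log2 fold change 1.00, limma adjusted p = 0.0525) or without luteal replicate 5 (0.99, limma adjusted p = 0.0501), and was kept in the other 8 fits that left out 1 ovary, among them that without follicular replicate 5 (1.42, limma adjusted p = 0.00898).

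CD3E, a chain of the T cell receptor complex that all T cells carry, did not follow the phase. It was 4.04, 2.86, 4.08, 3.40 and 7.44 FPKM in follicular and 2.42, 4.01, 3.54, 6.54 and 6.35 FPKM in luteal ovaries, so the 3 highest values were those of follicular replicate 5 and luteal replicates 4 and 5. The log2 fold change was 0.05 (95% interval -0.61 to 0.71, limma adjusted p = 0.902), and its sign turned when follicular replicate 2 or 4 or luteal replicate 4 or 5 was left out. CD4 was the lowest of the markers, at 0.575, 0.505, 0.458, 0.427 and 1.29 FPKM in follicular and 0.569, 0.781, 0.713, 0.723 and 0.684 FPKM in luteal ovaries. Follicular replicate 5 was the highest of all 10 ovaries, and the 4 highest of the rest were luteal. The log2 fold change of CD4 was 0.18 (95% interval -0.38 to 0.73, limma adjusted p = 0.588), and 0.43 without follicular replicate 5 (limma adjusted p = 0.0567).

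**Figure D2:**
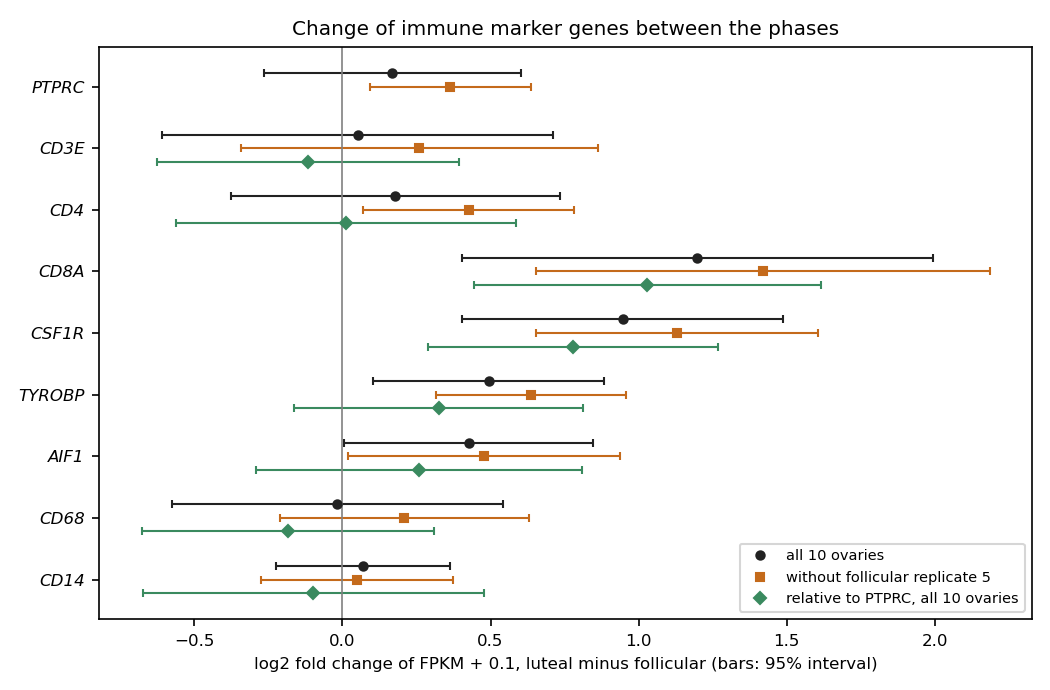
Log2 fold change of FPKM + 0.1 (horizontal axis, luteal minus follicular) of each marker, with its 95% interval from limma, for all 10 ovaries, without follicular replicate 5, and relative to PTPRC (all 10 ovaries). CSF1R and CD8A stay above 0 in all 3 fits, while the interval of PTPRC leaves 0 only without follicular replicate 5.

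FPKM is scaled by transcript length, so the levels of different markers could be set side by side. In luteal ovaries the mean FPKM ran from TYROBP (39.9) through AIF1 (34.3), CSF1R (19.7), PTPRC (10.9), CD14 (7.53), CD68 (7.19), CD3E (4.57) and CD8A (3.10) to CD4 (0.694). The ranges of TYROBP and AIF1, of CD14 and CD68, of CD68 and CD3E and of CD3E and CD8A overlapped in these ovaries, and those of the other neighbours did not. The order in follicular ovaries was the same except that CD68 stood before CD14, and there only CD3E and CD8A had ranges apart. The mean of TYROBP over all ovaries was above that of 87.2% of the genes tested, whereas that of CD4 was above 14.2%.

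To set the change of each marker against PTPRC in its own ovary, the log values were shifted so that PTPRC was equal in all ovaries. This scaling was chosen after the data were seen. With phase means subtracted, PTPRC had a median correlation of 0.860 with 18 T cell, 0.847 with 18 pan-leukocyte and 0.447 with 23 macrophage genes. Without follicular replicate 5 these were 0.687, 0.615 and 0.281. PTPRC thus varied more like the T cell than the macrophage genes, and does not stand for all leukocytes alike. The scaling moved the median log2 fold change of all genes from -0.14 to -0.31. The ratio of CSF1R to PTPRC was 1.14, 0.719, 1.32, 1.16 and 1.01 in follicular and 2.24, 1.54, 1.89, 1.79 and 1.65 in luteal ovaries. The ratio of CD8A to PTPRC was 0.119, 0.122, 0.105, 0.115 and 0.132 in follicular and 0.195, 0.227, 0.148, 0.392 and 0.402 in luteal ovaries. The phases did not overlap in either ratio, as in 9.70% of the ratios of all genes to PTPRC, and follicular replicate 5 lay with the other follicular ovaries. On this scale the log2 fold change was 0.78 for CSF1R (SE 0.24, limma adjusted p = 0.0224) and 1.03 for CD8A (SE 0.29, limma adjusted p = 0.0125), and 19.5% of all genes were called. Without follicular replicate 5 the values were 0.77 (limma adjusted p = 0.00444) and 1.06 (limma adjusted p = 0.00701), while the share of all genes called was 56.0%, most of them (49.2% of all genes) as higher in the follicular phase. The other 6 markers did not pass the test relative to PTPRC, TYROBP among them (0.32, limma adjusted p = 0.330).

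The transcripts annotated as the parts of the CD8 co-receptor, CD8A and CD8B, went in opposite directions. CD8B was 24.2, 16.8, 29.1, 22.5 and 25.1 FPKM in follicular and 9.22, 8.93, 11.8, 7.44 and 7.14 FPKM in luteal ovaries, with no overlap. It fell by 1.39 on the log2 scale (SE 0.16, limma adjusted p = 7.91e-05), and was called in 10 of 10 fits that left out 1 ovary. CD8B was above CD3E and above CD8A in 10 of 10 ovaries, and follicular replicate 5 did not stand out in it.

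Relative to CD3E, the ratio of CD8A was 0.274, 0.301, 0.234, 0.281 and 0.296 in follicular and 0.721, 0.597, 0.429, 0.746 and 0.785 in luteal ovaries, with no overlap, as in 5.16% of the ratios of all genes to CD3E. The ratio of CD8B to CD3E was 5.99, 5.85, 7.12, 6.61 and 3.38 in follicular and 3.81, 2.23, 3.33, 1.14 and 1.12 in luteal ovaries, where only follicular replicate 5 and luteal replicate 1 crossed. With CD3E made equal in all ovaries, another scaling chosen after the data were seen, CD8B was lower in the luteal phase (log2 fold change -1.44, limma adjusted p = 0.00577). CD8A was not called on this scale (1.15, 95% interval 0.33 to 1.96, limma adjusted p = 0.0775), nor were CSF1R (0.90, limma adjusted p = 0.183) and CD4 (0.13, limma adjusted p = 0.935), and 6.50% of all genes were called. The values without follicular replicate 5 were -1.62 for CD8B (limma adjusted p = 0.000343) and 1.16 for CD8A (limma adjusted p = 0.0532). With phase means subtracted, the correlation of CD8B over the 10 ovaries was -0.106 with CD3E and -0.408 with CD8A, while that of CD3E with CD8A was 0.925. When follicular replicate 5 was left out, the values of CD8B were -0.257 with CD3E and -0.591 with CD8A. The median correlation of CD8B was -0.10 with 17 T cell genes (-0.237 without that ovary) and 0.699 with 10 stromal genes, against 0.0816 over all genes. With 18 pan-leukocyte genes it was 0.310 and with 23 macrophage genes 0.367 (0.286 and 0.342 without that ovary). The stromal medians of AIF1 and CSF1R were 0.488 and 0.447. Whether the CD8B values came from T cells was not tested, so its fall and its ratio to CD3E describe this transcript and not a T cell class.

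**Figure D3:**
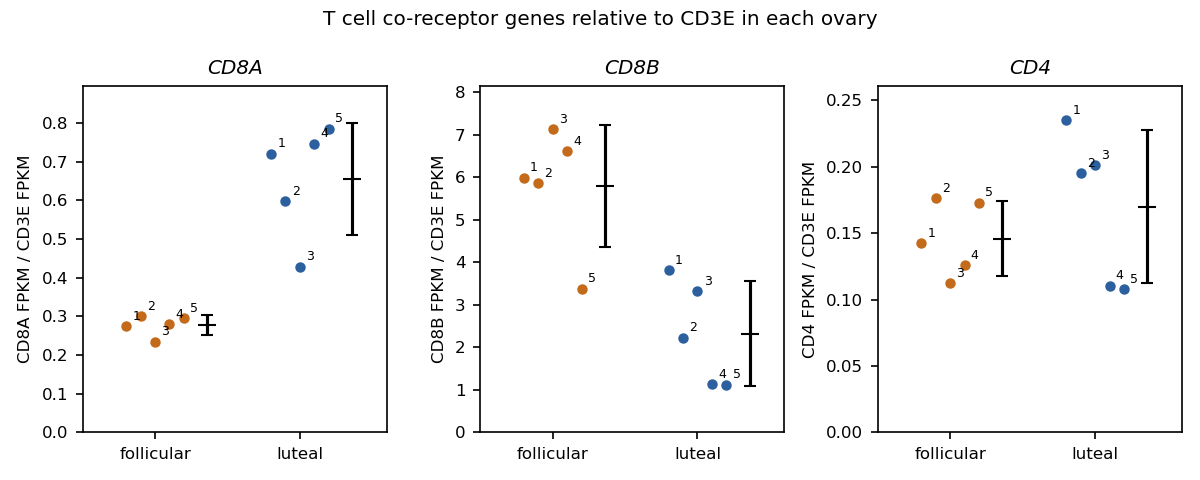
Ratio of the FPKM of CD8A, CD8B and CD4 to that of CD3E (vertical axes, from 0) in each of 5 follicular and 5 luteal ovaries, numbered by replicate, with the mean ± SD in black. The CD8A ratio was higher in all 5 luteal ovaries, the CD8B ratio was higher in the follicular ovaries except replicate 5, and the CD4 ratios overlapped.

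The markers differed in how they varied between ovaries of the same phase. With phase means subtracted, 27 of 36 pairs of markers had a positive Pearson correlation over the 10 ovaries, with a median of 0.559, and without follicular replicate 5 it was 22 of 36 with a median of 0.249. These correlations are given as a description, since the genes share libraries and 1 ovary weighs on all of them. The closest pairs were CD68 with TYROBP (0.945), CD3E with CD8A (0.925) and PTPRC with CD3E (0.896), and without follicular replicate 5 these were 0.890, 0.894 and 0.945. CD14 was apart from the rest, with a negative correlation with every marker except AIF1 (0.279), down to -0.679 with CD8A. In follicular replicate 5, in which 7 markers were at their follicular maximum, CD14 lay 0.08 below the follicular mean on the log2 scale.

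**Figure D4:**
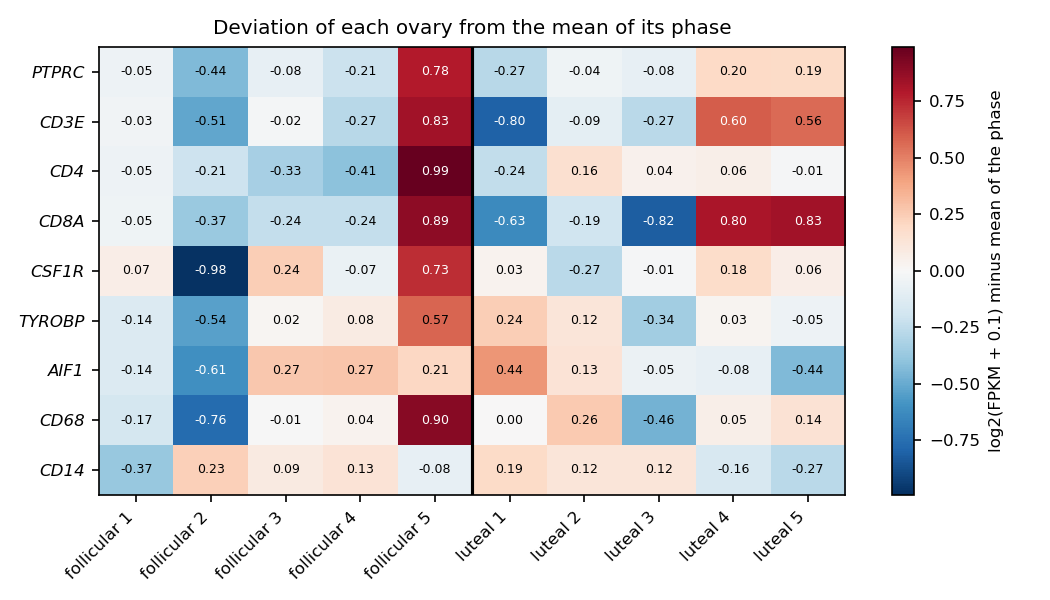
Deviation of log2(FPKM + 0.1) of each marker (rows) in each ovary (columns) from the mean of its phase, with red above and blue below the mean. Follicular replicate 5 is high for the markers except AIF1 and CD14, and luteal replicates 4 and 5 are high for CD3E and CD8A.

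The markers were also set against the longer lists of genes, with phase means subtracted. CD3E had a median correlation of 0.805 with 18 other T cell genes and 0.709 with 9 cytotoxic lymphocyte genes, against 0.0441 over all genes tested (0.682 and 0.586 without follicular replicate 5). TYROBP had a median of 0.623 with 23 other macrophage genes, 22 of them positive, against 0.0796 over all genes (0.533 without follicular replicate 5). With all 10 ovaries the likeness was not particular to these lists. The median with 18 pan-leukocyte genes was 0.676 for CD3E and 0.646 for TYROBP, and 0.448 and 0.294 without follicular replicate 5. TYROBP had a median of 0.456 with the T cell genes, which became -0.104 without that ovary. The median of CD14 with these macrophage genes was -0.0346, and with the T cell genes -0.499. The genes most like PTPRC were LAPTM5 (0.981), ADCY7 (0.978), ZPBP (0.976), KCNA3 (0.971) and DOK2 (0.970), and those most like TYROBP were FERMT3 (0.981), ITGB2 (0.961), EVA1A (0.957), LOC106501822 (0.955) and FOLR2 (0.949), each over 10 ovaries.

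The lists of other immune genes were tested in the same fit, and their counts are to be read against the 43.7% of all genes called. Over 8 lists, 102 genes were tested once each. In the luteal phase 21 were higher, 10 were higher in the follicular phase and 71 did not pass the test, with a median log2 fold change of 0.13. Without follicular replicate 5 the luteal count was 30, the follicular count 10 and the median 0.32.

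Macrophage and monocyte genes made up the longest of these lists. Of 23 tested, 11 were higher in the luteal phase, 3 were higher in the follicular phase and 9 did not pass the test, with a median log2 fold change of 0.48 (12, 3 and 0.60 without follicular replicate 5). SIGLEC1, a sialic acid receptor of macrophages, was 0.648, 0.290, 0.401, 0.340 and 0.884 FPKM in follicular and 1.79, 0.732, 3.30, 5.60 and 5.08 FPKM in luteal ovaries (log2 fold change 2.26, SE 0.49, limma adjusted p = 0.00372). CX3CR1, the receptor for fractalkine, did not overlap between the phases and had a log2 fold change of 1.69 (SE 0.31, limma adjusted p = 0.00149). ADGRE1, which codes for the macrophage protein F4/80, went the other way, from 0.744 to 1.53 FPKM in follicular and from 0.0641 to 0.322 FPKM in luteal ovaries (-2.37, SE 0.28, limma adjusted p = 7.78e-05). S-LZ, a gene that the goat annotation gives LYZ (lysozyme) as a synonym for and that may not be the lysozyme gene of macrophages, had a log2 fold change of -0.88 (limma adjusted p = 0.0408). Its call was held in 4 of 10 fits that left out 1 ovary, and was lost with a common median (adjusted p = 0.0713) and with quantile normalization (adjusted p = 0.0510).

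C1QA and MRC1 of this list, chosen after their values were seen, had phases well apart. C1QA, a chain of the complement protein C1q that macrophages secrete, was 30.0, 21.0, 34.7, 30.3 and 37.3 FPKM in follicular and 85.4, 88.8, 70.6, 100.3 and 78.1 FPKM in luteal ovaries (log2 fold change 1.48, SE 0.15, limma adjusted p = 2.54e-05). MRC1, the mannose receptor, was from 18.2 to 23.9 FPKM in follicular and from 35.3 to 80.0 FPKM in luteal ovaries (2.46-fold, limma adjusted p = 0.000263). The summed FPKM of the list was 465 to 577 in luteal and 193 to 441 in follicular ovaries. Abundant genes weigh most in this sum, such as C1QA with a mean of 84.6 in luteal and 30.6 in follicular ovaries. It does not show a rise of the whole list, since 9 of 23 genes did not pass the test and 3 were higher in the follicular phase. MRC1 and other genes of the list are also made by cells that line lymphatic vessels. Endothelial genes had a summed FPKM of 250 to 331 in luteal and 128 to 160 in follicular ovaries, and their part in the macrophage list was not tested.

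Pan-leukocyte genes were mostly not called, with 3 of 18 higher in the luteal phase, 15 that did not pass the test and a median of 0.22. Without follicular replicate 5 there were 8, with a median of 0.40. NCF4, a part of the phagocyte NADPH oxidase, was far from the rest of its list, at 2.06, 3.83, 1.78, 1.75 and 2.65 FPKM in follicular and 40.4, 40.7, 24.0, 28.9 and 22.9 FPKM in luteal ovaries (log2 fold change 3.66, SE 0.23, limma adjusted p = 1.05e-06). ARHGDIB was higher by 0.74 on the log2 scale (limma adjusted p = 0.00566).

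Of 18 T cell genes besides CD3E, CD4 and CD8A, 1 was higher in the luteal phase, 2 were higher in the follicular phase and 15 did not pass the test, with a median of 0.08. The counts of calls were the same without follicular replicate 5, and the median was 0.34. CTLA4, an inhibitory receptor of activated and regulatory T cells, was 0.662, 0.672, 0.826, 0.846 and 1.01 FPKM in follicular and 5.17, 3.56, 1.58, 2.46 and 2.53 FPKM in luteal ovaries (log2 fold change 1.72, SE 0.27, limma adjusted p = 0.000514). Its highest values were in luteal replicates 1 and 2, not in replicates 4 and 5 where CD3E was high. The genes that fell were CD8B and IL7R, the receptor for interleukin 7 (-0.84, limma adjusted p = 0.0148).

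None of 9 cytotoxic lymphocyte genes was called by limma, with 1 at an unadjusted p under 0.05 and a median of 0.19, and without follicular replicate 5, 1 was called and the median was 0.46. Their summed FPKM was 34.9 and 33.6 in luteal replicates 4 and 5 and 35.2 in follicular replicate 5, and 10.3 to 16.8 in the other 7 ovaries. These are the 3 ovaries in which CD3E was highest. CD8A, whose mean differed between the phases, was thus high in 2 of the luteal ovaries together with cytotoxic genes that did not pass the test.

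**Figure D5:**
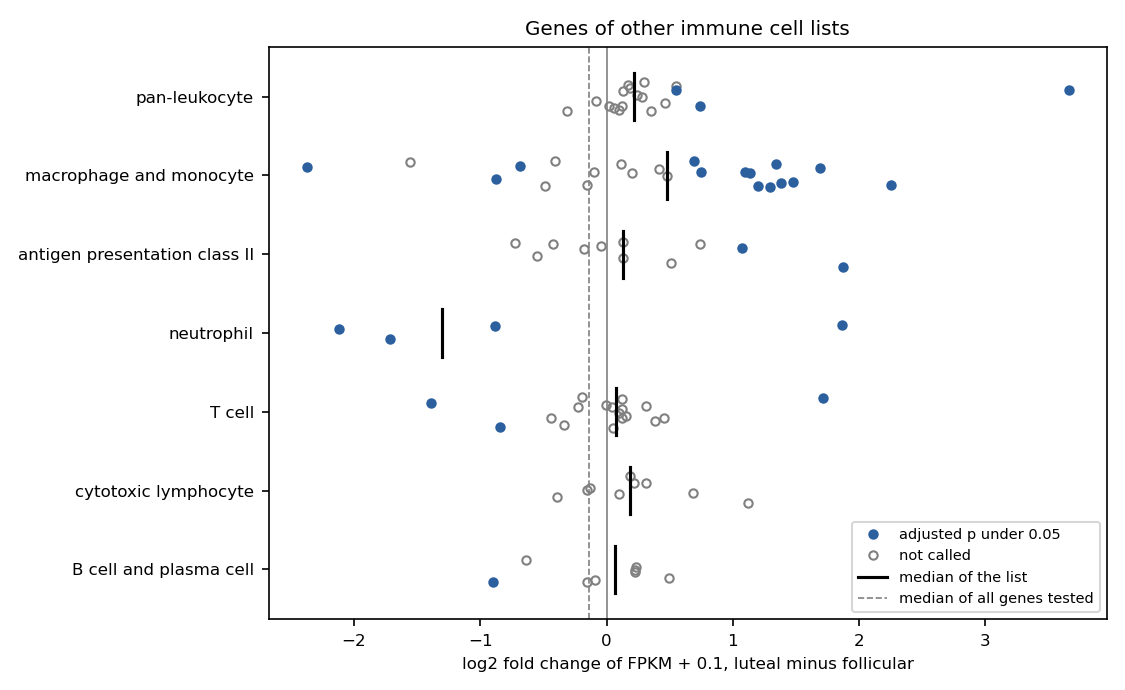
Log2 fold change of FPKM + 0.1 (horizontal axis, luteal minus follicular) of each tested gene in 7 immune lists, filled where the limma adjusted p was under 0.05, with the median of each list (black bar) and of all genes tested (dashed line). Macrophage genes lie mostly to the right, with a median of 0.48, while the medians of T cell genes (0.08, and 0.34 without follicular replicate 5) and B cell genes (0.07) are nearer to 0.

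Of 8 B cell and plasma cell genes, 1 was higher in the follicular phase (2 without follicular replicate 5) and 7 did not pass the test, and the median log2 fold change of the list was 0.07 (0.023 without that ovary). All 4 neutrophil genes tested were called. S100A8 and S100A9, which code for the parts of calprotectin, were higher in the follicular phase (-2.12, limma adjusted p = 0.00262, and -1.71, limma adjusted p = 0.0119), as was ELANE, which was named after its value was seen, and CXCR2, a chemokine receptor, was higher in the luteal phase (1.87, limma adjusted p = 9.99e-06). Of 11 genes of class II antigen presentation and dendritic cells, BATF3 (1.88) and CD40 (1.07) were higher in the luteal phase, with a limma adjusted p of 0.000371 and 0.000360, and 9 did not pass the test. When follicular replicate 5 was left out, 4 of these 11 genes were called, all as higher in the luteal phase, and the median moved from 0.13 to 0.23.

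Genes known to act together with the markers were examined last. Of 15 tested, 3 were higher in the luteal phase, 1 was higher in the follicular phase and 11 did not pass the test, with a median of 0.05 (3, 0 and 0.094 without follicular replicate 5). Of the ligands of CSF1R, CSF1 was 1.99, 2.59, 2.48, 1.83 and 1.69 FPKM in follicular and 5.60, 3.05, 4.62, 3.82 and 4.69 FPKM in luteal ovaries, with no overlap (log2 fold change 1.00, SE 0.18, limma adjusted p = 0.00118). IL34 did not pass the test (-0.01, 95% interval -0.73 to 0.70). CSF1 and its receptor were thus higher in the same phase, by 1.00 and 0.95 on the log2 scale.

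Of the receptors that act with CD14, LY96, which codes for the TLR4 partner MD-2, was higher in the luteal phase (1.09, SE 0.22, limma adjusted p = 0.00222), as was TLR2 (0.78, SE 0.12, limma adjusted p = 0.000378). TLR4 itself and the adaptor MYD88 did not pass the test (-0.34 and 0.11, limma adjusted p = 0.215 and 0.439). TREM2, the receptor that signals through TYROBP, had a log2 fold change of -0.10 (limma adjusted p = 0.814), and SYK, the kinase downstream of it, 0.10 (limma adjusted p = 0.622). HMOX1, the haem oxygenase that acts on haem taken up by macrophages, was higher in the follicular phase (-0.62, limma adjusted p = 0.0488), a call that was lost without follicular replicate 5 (adjusted p = 0.0502) and with a common median (adjusted p = 0.101). LCK and PTPRCAP, partners of CD4, CD8 and CD45 in T cells, did not pass the test (0.12 and 0.30).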

How the data were processed

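Ribosomal RNA-depleted libraries of 10 whole ovaries were sequenced. Per the study's methods, the authors aligned reads with HISAT2 2.0.4, assembled them with StringTie 1.3.1 and computed the deposited FPKM of each transcript in each ovary with Cuffdiff 2.1.1; no ovaries were pooled. Which genome build was used is not given in the sources used here.

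FPKM of protein-coding transcripts were summed by symbol and analysed as log2(FPKM + 0.1). Genes reaching an FPKM of 0.1 in 5 or more ovaries entered limma 3.58.1 (lmFit, eBayes with trend; R 4.3.3), luteal minus follicular, two-sided, with Benjamini-Hochberg adjustment over all 15359 genes tested (single transcripts: over 32842). Fold changes on this scale understate those of low genes. Intervals are limma's 95% intervals of single genes. Python 3.11.15 with pandas 2.3.3 and scipy 1.17.1 was used for exact permutation tests and summaries. On simulated data, with 200 of 15359 genes changed in each of 10 draws, 75.3% of 2-fold and 96.7% of 4-fold changes were recovered, and 4.66% of calls were false. For the 32842 transcripts these were 28.8%, 65.6% and 9.40%. In the simulation the ovaries were exchanged at random for each gene, so variation that genes share between ovaries was not kept. Far fewer genes were changed than the 43.7% called here. These rates therefore need not hold for the comparison of the phases.

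The 10 markers and all gene lists were chosen with earlier results of these data known. Of 171 distinct listed symbols, 22 were not matched and not analysed here, 8 immune and 3 red blood cell genes were below the filter and not tested, and 2 were found by synonym in the goat RefSeq table (LYZ as S-LZ, CYP11A1 as LOC102173131). Besides the markers and their partners, the text names up to 2 called genes per immune list and direction with the largest change, up to 2 genes per other list, and the 5 genes most like PTPRC and TYROBP. C1QA, MRC1 and ELANE were added after their values were seen. A gene that this rule selects is not reported here, although the counts include it. Nothing states whether ovaries came from separate goats, so p-values measure the spread between these ovaries. Equal replicate numbers of the phases were not treated as pairs. The alternatives tried were other pseudocounts, filters, scalings, thresholds and tests, a replicate block, single transcripts and leaving out each ovary.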

Additional observations from a re-analysis of the deposited data

Results flagged for a closer look

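Single ovaries lay far from the other 4 of their phase in 10 of 104 groups examined, by the gap to the nearest ovary relative to the range of the group. Chance alone flags about 1 in 20 groups, and the genes share ovaries, so these are not independent.

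Of the 10, 6 concerned follicular replicate 5, which was the highest for PTPRC (16.7 FPKM, next 9.32), CD3E (7.44, next 4.08), CD4 (1.29, next 0.575), CD8A (2.20, next 1.11), IL7R (11.3, next 5.51) and LCK (7.05, next 3.34). In the other groups, S100A8 was highest in follicular replicate 4 (27.3 FPKM, next 10.9) and S100A9 in luteal replicate 2 (9.44, next 3.74). IL34 was lowest in luteal replicate 2 (0.627 FPKM, next 1.42), and CD247 was lowest in luteal replicate 3 (7.55 FPKM, next 9.29).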

How the results depend on the processing

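At the gene level and an adjusted p under 0.05, CSF1R lost its call only relative to CD3E (0.90, and 0.87 without follicular replicate 5), and CD8A lost it there (1.15 and 1.16) and without luteal replicate 4 or 5. TYROBP lost its call in 17 of 25 such alternatives. Between 1 (without luteal replicate 4) and 4 markers were called when 1 ovary was left out, 1 (CSF1R) at an adjusted p under 0.01, and 0 relative to CD3E, with or without follicular replicate 5. Signs turned for markers with no call: CD3E without follicular replicate 2 (-0.08) or 4 (-0.02; range 0.26 to -0.099 when 1 ovary was left out), without luteal replicate 4 (-0.10) or 5 (-0.09), and relative to PTPRC (-0.12, and -0.10 without follicular replicate 5). For CD68 they turned with a common median (0.068), quantile normalization (0.042), TPM (0.082), and without follicular replicate 5 (0.21) or luteal replicate 3 (0.10). For CD14 they turned without follicular replicate 1 (-0.024; range -0.024 to 0.14 when 1 ovary was left out), relative to PTPRC (-0.10, and -0.32 without follicular replicate 5) and relative to CD3E without follicular replicate 5 (-0.21).

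Among single transcripts 1 marker was called (CSF1R), 3 with a common median, 2 with quantile normalization, 0 at an adjusted p under 0.01, 4 at an unadjusted p under 0.05 and 0 to 3 when 1 ovary was left out. Over all genes 6711 were called, and 4027 at an adjusted p under 0.01. Over all transcripts 5677 were called, 2497 at an adjusted p under 0.01 and 10393 at an unadjusted p under 0.05. Of all genes called, 36.3% were higher in the luteal phase, 48.8% with a common median, 41.8% with quantile normalization and 52.5% with TPM. The cause of these changes was not tested.

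Equal replicate numbers correlated by 0.0258 to 0.199 across the phases, 2 of 5 pairs above 0.1, and 2 of 5 luteal ovaries correlated best with their own number. With a replicate block, 2 markers (CSF1R and CD8A) were called at the gene level and 2 at the transcript level, and 7020 genes in all.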
